A study of Mus musculus with 14 samples.

Results

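The cell cycle and proliferation genes described here were 45 mouse genes, found by symbol among the 51912 genes of the deposited count tables and split by their textbook phase into 7 genes of G1, 10 of S phase and 28 of mitosis. All 45 had a row in every library, and all 45 were among the 15651 genes with enough counts to be tested. Gene expression was measured by poly(A) RNA sequencing of hearts from mice on the C57BL/6J background that were labelled knockout for Clk3, a kinase of splicing factors, or wild type, after sham surgery or TAC. TAC is taken as transverse aortic constriction, which narrows the aorta and loads the left ventricle with pressure, and by its title the study concerned the role of Clk3 in cardiac hypertrophy. There were 14 libraries, 4 of knockout TAC (10 weeks of age), 4 of knockout sham (2 at 11 weeks and 2 at 10 weeks), 2 of wild-type TAC (10 weeks) and 4 of wild-type sham (2 at 11 weeks and 2 at 10 weeks). The labels do not give the Clk3 allele, the cells in which it was removed, the sex, the time since surgery or whether each library came from its own animal. Where libraries shared an animal, the p-values would measure technical spread only.

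Cells enter the cycle when D-type cyclins with their kinases and then E-type cyclins release the E2F factors, which switch on the genes of DNA synthesis. The genes of mitosis, which build the spindle, hold the chromosomes to it and divide the cell, are repressed in resting cells by the DREAM complex and switched on later, largely by B-MYB with the MuvB complex and by FOXM1. Adult heart muscle cells seldom divide, and most cycling cells of the adult heart are fibroblasts, endothelial cells and immune cells. Bulk RNA does not tell which cells hold a transcript, and more cycling cells cannot be told apart from more RNA per cell.

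The window of each promoter, from 250 bases before to 50 bases after the gene's start, was taken from RefSeq on build GRCm38.p6 and was found for 37 of the 45 genes, 4 of G1, 9 of S phase and 24 of mitosis. Both strands were searched for the CCAAT box bound by NF-Y (CCAAT), the cell cycle homology region or CHR bound by the DREAM and B-MYB complexes (TTTGAA), and 2 forms of the E2F site (TTTCGCGC and TTTGGCGC). None of these motifs contains another, but sites can share bases, as the 2 E2F forms do at 1 place of the Mcm6 window. The promoters printed here are those of Cdk1 and Mki67, mitotic genes that rose after TAC in wild-type hearts, Cenpf, a mitotic gene that fell, and Mcm6, an S phase gene with E2F sites and no CHR. Each runs 5′ to 3′ on the gene's own strand, which is the minus strand for all 4 genes, and the capitals mark the motif matches on either strand.
Cdk1 chr10:69352863-69353162: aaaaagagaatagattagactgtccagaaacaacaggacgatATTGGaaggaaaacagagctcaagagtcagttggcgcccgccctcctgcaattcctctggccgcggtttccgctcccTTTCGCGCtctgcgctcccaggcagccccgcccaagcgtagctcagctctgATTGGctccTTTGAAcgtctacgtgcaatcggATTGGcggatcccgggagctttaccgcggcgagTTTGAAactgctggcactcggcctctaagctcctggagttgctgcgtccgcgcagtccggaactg
Mki67 chr7:135716330-135716629: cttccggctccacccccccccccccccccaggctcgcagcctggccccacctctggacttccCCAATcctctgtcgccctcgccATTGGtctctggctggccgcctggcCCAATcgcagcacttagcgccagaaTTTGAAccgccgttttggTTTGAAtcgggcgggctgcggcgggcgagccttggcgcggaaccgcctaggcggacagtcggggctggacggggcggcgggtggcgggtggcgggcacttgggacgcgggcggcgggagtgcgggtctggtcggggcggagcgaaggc
Cenpf chr1:189688037-189688336: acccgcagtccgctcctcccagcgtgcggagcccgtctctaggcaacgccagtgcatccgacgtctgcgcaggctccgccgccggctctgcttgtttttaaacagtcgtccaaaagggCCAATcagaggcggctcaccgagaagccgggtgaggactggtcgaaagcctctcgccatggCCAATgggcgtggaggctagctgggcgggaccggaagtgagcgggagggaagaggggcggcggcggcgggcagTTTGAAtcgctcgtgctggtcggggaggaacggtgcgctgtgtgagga
Mcm6 chr1:128359656-128359955: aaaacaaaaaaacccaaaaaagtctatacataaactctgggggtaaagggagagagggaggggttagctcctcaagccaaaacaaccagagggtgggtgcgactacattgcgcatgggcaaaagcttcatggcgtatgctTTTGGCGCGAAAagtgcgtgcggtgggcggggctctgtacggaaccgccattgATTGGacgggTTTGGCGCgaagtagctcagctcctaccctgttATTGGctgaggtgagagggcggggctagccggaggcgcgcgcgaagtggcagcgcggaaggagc

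The CHR was present in 19 of the 24 mitotic windows (79.2%), 1 of the 9 S phase windows (11.1%) and none of the 4 G1 windows, against 18.1% of all 27025 windows. The CCAAT box was present in 21 mitotic windows (87.5%) and 8 S phase windows (88.9%), against 37.9% of all windows. Both together stood in 18 mitotic windows (75%), against 7.12% of all windows. An E2F site was found in 4 S phase windows (44.4%) and in 1 mitotic window (4.17%), that of Cdk1, against 0.833% of all windows. The Cdk1 window held 3 CCAAT boxes and 2 CHR matches, one of them 15 bases before the start. Cenpf, which fell, held the same pair of motifs, with 2 CCAAT boxes and a CHR 3 bases after the start. A match describes the letters of the window and does not show that a factor binds there.

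The level of the genes was low for most of the list. Across the 14 libraries 28 of the 45 genes stayed under 100 raw counts in every library, 23 of them mitotic, and 6 fell under 10 counts in some library. Only 4 genes had 500 counts or more in every library. Per kilobase of exon, and as a mean over the 14 libraries, Ccnd2 (31.7 CPM per kb, where CPM is counts scaled to a common library size with TMM factors), Ccnd1 (22.6) and Pcna (17.6) had the highest levels, followed by Cdkn1a (11.3), Cenpa (10.7), Ccnd3 (7.57) and Cenpf (4.82). The proliferation marker Mki67 was at 1.24 CPM per kb and the mitotic kinase gene Cdk1 at 0.408, while Bub1 (0.193) and Ncapg (0.181) were lowest. Same-named pseudogenes, to which reads could be lost, held at most 8 counts in any library.

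Libraries held 11385818 to 20369637 gene counts. Heart muscle genes were abundant in all 14, with Myh6 at 9545 to 16360 CPM and Tnnt2 at 3896 to 6034 CPM. Clk3 itself still had counts in every knockout library, at 50.8 to 64.9 CPM after TAC and 62.8 to 67.4 CPM after sham surgery. Wild-type TAC libraries had 54.2 and 92.3 CPM, against 73.2 to 96.0 CPM in wild-type sham. The library labelled wild-type TAC 1 stood apart from its genotype label: its Clk3 level of 54.2 CPM lay within the knockout range, and the ribosomal pseudogene Gm8730 was at 66.8 CPM in it, against 57.4 to 67.1 CPM in the 8 knockout libraries and 1.26 to 1.63 CPM in the 5 remaining wild-type ones. Its level of Nppa, a gene raised after TAC, was 1912 CPM, beside 1808 CPM in wild-type TAC 2 and above the 639.5 to 1119 CPM of knockout TAC. Its Myh7 level of 4684 CPM likewise lay nearer to wild-type TAC 2 (5736 CPM) than to knockout TAC (1427 to 3063 CPM). The genotype label was kept here. Values that rest on wild-type TAC are therefore also given with wild-type TAC 2 as the only TAC library, written as without TAC 1. This was done for single genes that moved or lost a call and for the lists of cycle genes and p53 targets. Calls of cell type markers are given with both libraries only. Libraries are numbered within a group in the order of deposit.

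After TAC in knockout hearts 3 of the 45 genes rose and 1 fell (edgeR quasi-likelihood test, adjusted p under 0.05 over all genes), against 6.73% of all genes tested that rose and 6.26% that fell. The cyclin D2 gene Ccnd2, the cell cycle inhibitor Cdkn1a and the mitotic kinase gene Aurka rose, and the kinetochore gene Cenpf fell. In wild-type hearts 10 of the 45 rose after TAC and 1 fell, against 6.91% and 5.3% of all genes. The genes that rose there were Ccnd2, Cdkn1a, the thymidylate synthase gene Tyms, and the mitotic genes Cdk1, Ect2, Anln, Mki67, Birc5, Prc1 and Tpx2. Again Cenpf was the gene that fell. Without the library labelled wild-type TAC 1, Ccnd2 alone passed in wild type. With the 10-week libraries alone 0 genes of the list passed in knockout, where 15 of all genes did, and 3 passed in wild type (Ccnd2, Anln and Cenpf). Over all genes the wild-type calls also fell, both with the 10-week libraries alone and without TAC 1.

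**Figure D1:**
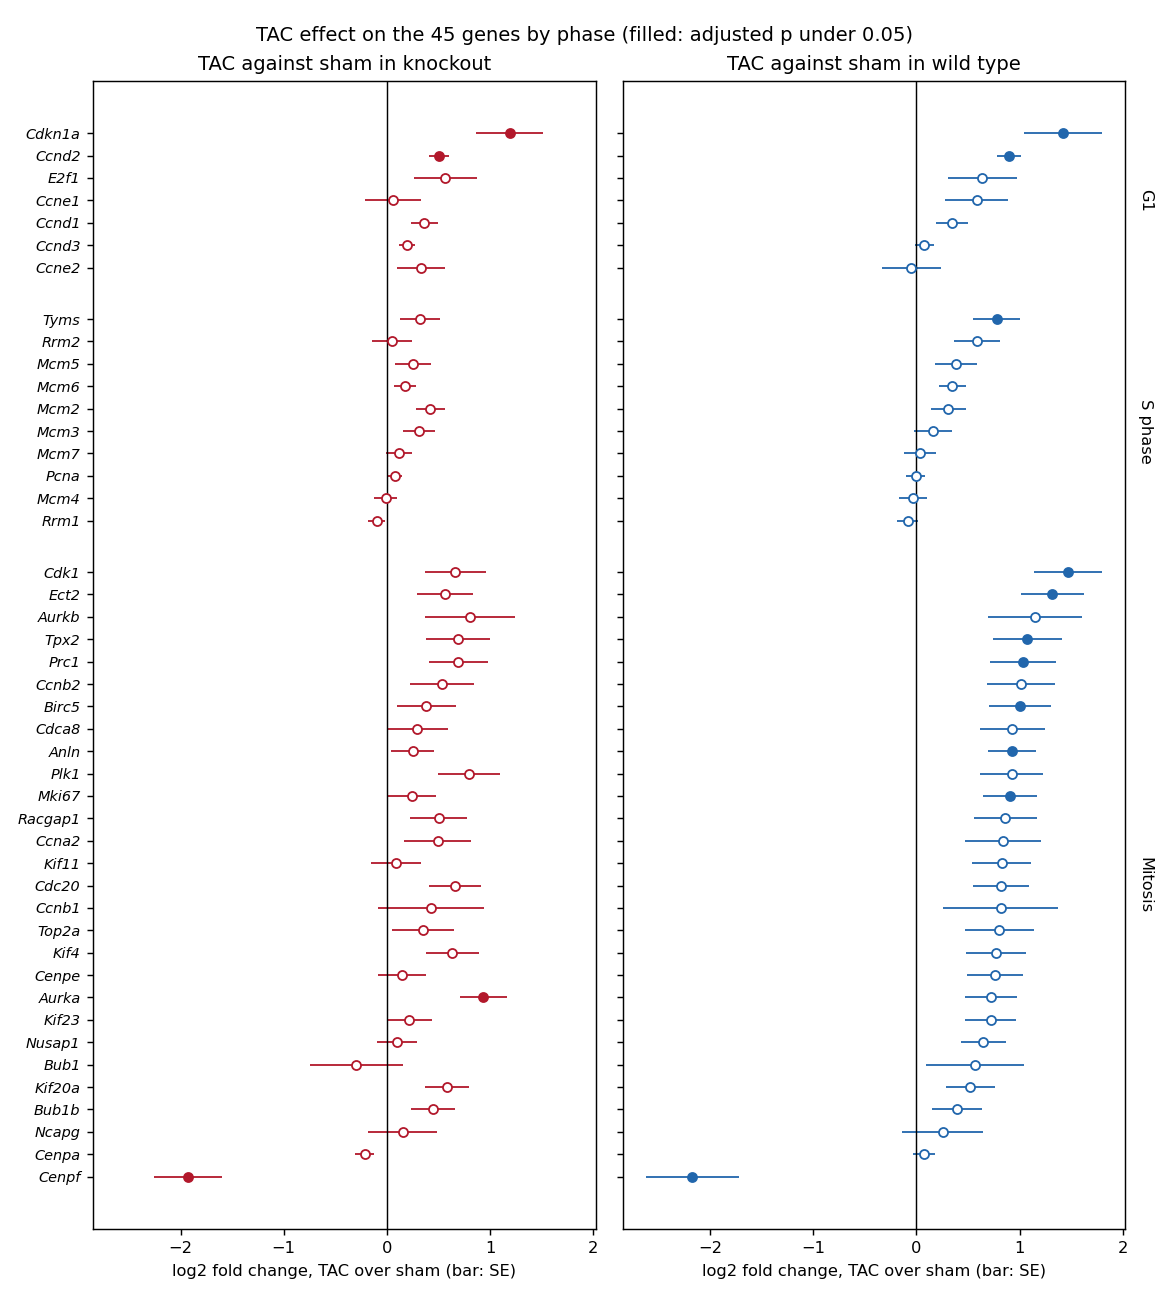
Change of each of the 45 genes after TAC, as log2 fold change over sham with its standard error, in knockout (left) and wild type (right), ordered within each phase by the wild-type change. Filled points passed the edgeR test at an adjusted p under 0.05: 4 genes in knockout and 11 in wild type. In wild type 27 of the 28 mitotic genes lie above 0, with Cenpf alone below, while the S phase genes lie nearer 0.

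Among the G1 genes, D-type cyclins bind CDK4 and CDK6 and carry growth signals into the cycle. Ccnd2 (ENSMUSG00000000184.12, chromosome 6, 127125162 to 127152193, minus strand, GRCm38) had 3353, 5472, 7084 and 5791 raw counts in knockout TAC (310, 370, 385 and 382 CPM), against 3496, 3298, 4282 and 3104 counts in knockout sham (241, 252, 302 and 227 CPM). In wild-type TAC it had 5890 and 5024 counts (452 and 372 CPM), against 2692, 5248, 3912 and 4019 counts in wild-type sham (210, 245, 214 and 217 CPM). In both genotypes every TAC library lay above every sham library of that genotype once scaled for depth. The mean was 362 ± 35.4 CPM in knockout TAC and 255 ± 32.6 CPM in knockout sham (SD, n = 4 each), a log2 change of 0.50 ± 0.10 (SE) or 1.42-fold (edgeR adjusted p = 0.00524). It was 412 ± 56.4 CPM in wild-type TAC and 222 ± 16.0 CPM in wild-type sham (SD, n = 2 and 4), a log2 change of 0.90 ± 0.12 or 1.86-fold (edgeR adjusted p = 0.000168). The rise passed in all 14 fits that left out 1 library, in both genotypes, at 0.75 (edgeR adjusted p = 0.00986) in wild type without TAC 1. The antisense transcripts Gm43126 and 9330179D12Rik overlap Ccnd2, and the strand setting of the counting is not given in the sources used here. With the coding part of the gene alone the change was 0.58 in knockout and 0.94 in wild type.

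Ccnd1 (ENSMUSG00000070348.5, chromosome 7, 144929931 to 144939925), the cyclin D1 gene, had 1331, 1540, 1610 and 1969 counts in knockout TAC (123, 104, 87.5 and 130 CPM), against 1258, 977, 1261 and 1302 in knockout sham (86.6, 74.8, 88.8 and 95.1 CPM). Wild-type TAC hearts had 2101 and 1499 counts (161 and 111 CPM), against 1225, 2216, 2079 and 2150 in wild-type sham (95.6, 104, 114 and 116 CPM). The groups overlapped in both genotypes, and the log2 change was 0.36 in knockout (edgeR adjusted p = 0.077) and 0.34 in wild type (adjusted p = 0.174), or 0.05 in wild type without TAC 1. The cyclin D3 gene Ccnd3 (ENSMUSG00000034165.16, chromosome 17, 47505051 to 47599691) had 791, 1001, 1351 and 1038 counts in knockout TAC (73.0, 67.7, 73.4 and 68.5 CPM), against 925, 777, 836 and 890 in knockout sham (63.7, 59.5, 58.9 and 65.0 CPM). It had 862 and 970 counts in wild-type TAC (66.2 and 71.9 CPM), against 744, 1459, 1139 and 1354 in wild-type sham (58.1, 68.2, 62.3 and 73.0 CPM). The 4 knockout TAC libraries lay narrowly above the 4 knockout sham libraries, but the change of 0.19 did not pass (edgeR adjusted p = 0.0964), and the wild-type groups overlapped (0.08, adjusted p = 0.65, or 0.13 without TAC 1). Of the 3 cyclin D genes, Ccnd2 was thus the one that passed in either genotype.

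Cdkn1a (ENSMUSG00000023067.13, chromosome 17, 29090976 to 29100727, plus strand) encodes p21, which inhibits cyclin-dependent kinases and is a target of p53. It had 803, 981, 1000 and 797 counts in knockout TAC (74.2, 66.3, 54.3 and 52.6 CPM), against 264, 204, 260 and 768 in knockout sham (18.2, 15.6, 18.3 and 56.1 CPM). It had 749 and 817 counts in wild-type TAC (57.5 and 60.5 CPM), against 209, 399, 382 and 589 in wild-type sham (16.3, 18.6, 20.9 and 31.8 CPM). The wild-type groups did not overlap, while knockout sham 4 lay among the knockout TAC libraries and far above the other 3 sham libraries. The log2 change was 1.19 ± 0.32 (SE) or 2.28-fold in knockout (edgeR adjusted p = 0.0266) and 1.42 ± 0.38 or 2.68-fold in wild type (adjusted p = 0.0218). Without knockout sham 4 the knockout change was 1.83 (edgeR adjusted p = 0.000255), and without wild-type TAC 1 the wild-type change was 1.46 (adjusted p = 0.121). With coding parts alone the wild-type change was 1.28 (edgeR adjusted p = 0.0561), and with the 10-week libraries alone the knockout change was 0.73 (adjusted p = 0.318). Knockout sham 4 also had 24.3 CPM of Arntl, a core clock gene, against 4.41 to 5.50 CPM in the other 3 knockout sham libraries and 9.02 to 23.2 CPM in knockout TAC. The 9.02 CPM was that of knockout TAC 3. Arntl also separated the surgeries in wild type, at 18.2 and 23.7 CPM in TAC and 4.53 to 9.38 CPM in sham. Dbp, another clock gene, was lower in wild-type TAC (79.12 and 69.35 CPM) than in wild-type sham (155 to 209 CPM). In knockout TAC it was at 54.7, 56.1 and 69.9 CPM, but at 126.5 CPM in knockout TAC 3. In knockout sham it was at 164.6, 190.1 and 188.5 CPM, but at 55.4 CPM in knockout sham 4. The part of these clock gene differences in the TAC changes of Cdkn1a and the other cycle genes was not tested.

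The other G1 genes were the cyclin E genes Ccne1 and Ccne2, whose proteins drive entry into S phase with CDK2, and E2f1, the transcription factor they release. Their counts were between 11 and 98 in all libraries. Their log2 changes were 0.06, 0.33 and 0.57 in knockout and 0.58, −0.05 and 0.64 in wild type, in the order Ccne1, Ccne2 and E2f1, and none passed (smallest edgeR adjusted p = 0.231 in knockout and 0.24 in wild type). Without TAC 1 the wild-type changes were −0.01 for Ccne1, −0.64 for Ccne2 and 0.16 for E2f1. Over the 7 G1 genes the median change was 0.36 in knockout, beside −0.01 over all genes, and 0.58 in wild type, beside 0.00 over all genes. In wild type it was 0.13 without TAC 1. Of 27 other tested regulators of G1 and the restriction point, the growth factor response gene Myc rose in both genotypes, by 0.86 ± 0.22 in knockout (edgeR adjusted p = 0.0208) and 1.24 ± 0.24 in wild type (adjusted p = 0.00288). The E2F partner Tfdp2 (−0.51 ± 0.11, edgeR adjusted p = 0.00732) and the inhibitor Cdkn1c (−0.41 ± 0.12, adjusted p = 0.0387) fell in wild type. Without TAC 1 the wild-type changes were 1.42 for Myc (edgeR adjusted p = 0.0156), which still passed, and −0.51 for Tfdp2 (adjusted p = 0.0873) and −0.23 for Cdkn1c (adjusted p = 0.456), which did not. The other 26 genes in knockout and 24 in wild type did not pass. For comparison, 6.73% of all genes rose and 6.26% fell in knockout, and 6.91% rose and 5.3% fell in wild type. The list's median change was 0.01 in knockout and −0.01 in wild type, or −0.05 in wild type without TAC 1.

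**Figure D2:**
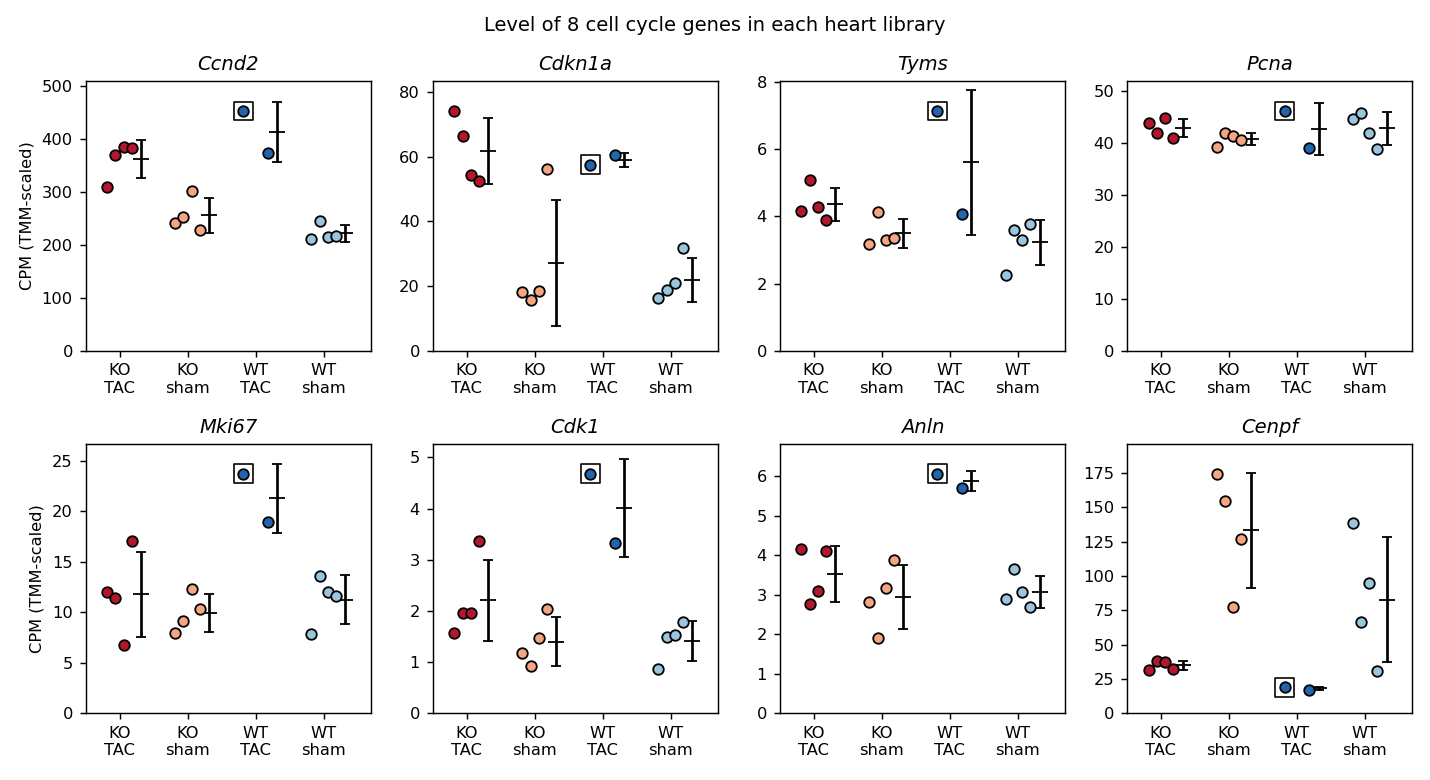
Level of 8 of the genes in each library, in CPM scaled by TMM, for knockout TAC, knockout sham, wild-type TAC and wild-type sham. Points are libraries, the bar beside them is the mean with its SD (n = 4, 4, 2 and 4), and a square marks the library labelled wild-type TAC 1. Ccnd2 is higher and Cenpf lower in every TAC library than in every sham library of the same genotype, 1 knockout sham library reaches 56.1 CPM of Cdkn1a, and Pcna stays at 38.9 to 46.2 CPM throughout.

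The S phase genes encode the replication fork and the enzymes that make its nucleotides. In knockout 0 of the 10 passed after TAC (edgeR, smallest adjusted p = 0.0597, 1 at an unadjusted p under 0.05, and 1, Mcm2, with DESeq2). In wild type 1 of 10 rose, Tyms. Over all genes tested 6.73% rose and 6.26% fell in knockout, and 6.91% rose and 5.3% fell in wild type. The S phase counts lay near these shares. The median change of the 10 genes was 0.15 in knockout and 0.23 in wild type, or 0.05 in wild type without TAC 1. Summed over the 10 genes the level was 134 to 144 CPM in knockout TAC, 120 to 139 CPM in knockout sham, 139 and 166 CPM in wild-type TAC and 136 to 154 CPM in wild-type sham, so that the TAC and sham ranges overlapped in both genotypes.

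Pcna (ENSMUSG00000027342.14, chromosome 2, 132249162 to 132253314), the sliding clamp of the replicative polymerases, had 476, 622, 824 and 620 counts in knockout TAC (44.0, 42.0, 44.8 and 41.0 CPM), against 570, 547, 587 and 556 in knockout sham (39.2, 41.9, 41.4 and 40.6 CPM). It had 602 and 528 counts in wild-type TAC (46.2 and 39.1 CPM), against 573, 982, 766 and 721 in wild-type sham (44.7, 45.9, 41.9 and 38.9 CPM). The groups overlapped, and the change was 0.07 in knockout (edgeR adjusted p = 0.528) and −0.01 in wild type (adjusted p = 0.975), or −0.13 without TAC 1. Mcm2 (ENSMUSG00000002870.8, chromosome 6, 88883474 to 88898780), a subunit of the replicative helicase, had 90, 177, 245 and 169 counts in knockout TAC (8.31, 12.0, 13.3 and 11.2 CPM), against 103, 120, 135 and 109 in knockout sham (7.09, 9.19, 9.51 and 7.96 CPM). In wild-type TAC it had 158 and 137 counts (12.1 and 10.2 CPM), against 110, 212, 159 and 161 in wild-type sham (8.59, 9.91, 8.70 and 8.68 CPM). Both wild-type TAC libraries lay above the sham libraries, while the knockout groups overlapped, and neither change passed (0.42, edgeR adjusted p = 0.0597 in knockout, and 0.31, adjusted p = 0.262 in wild type, or 0.18 without TAC 1). The other 5 helicase subunits, Mcm3 to Mcm7, changed by −0.01 to 0.31 in knockout and by −0.03 to 0.38 in wild type (−0.07 to 0.22 without TAC 1), and none passed.

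Tyms (ENSMUSG00000025747.12, chromosome 5, 30058202 to 30073617) makes the thymidylate that DNA synthesis consumes. It had 45, 75, 79 and 59 counts in knockout TAC (4.16, 5.07, 4.29 and 3.90 CPM), against 46, 54, 47 and 46 in knockout sham (3.17, 4.13, 3.31 and 3.36 CPM). It had 93 and 55 counts in wild-type TAC (7.14 and 4.08 CPM), against 29, 77, 60 and 70 in wild-type sham (2.26, 3.60, 3.28 and 3.77 CPM). The rise in wild type was 0.78 ± 0.23 or 1.71-fold (edgeR adjusted p = 0.0384) and rested on TAC 1, without which it was 0.32 (adjusted p = 0.625). In knockout the groups overlapped, with a change of 0.32 (edgeR adjusted p = 0.299). The ribonucleotide reductase subunits did not pass: Rrm2, whose level follows the cycle, changed by 0.05 in knockout and 0.59 in wild type (edgeR adjusted p = 0.898 and 0.0975), and Rrm1 by −0.10 in knockout and −0.08 in wild type. The wild-type changes without TAC 1 were 0.33 for Rrm2 and −0.22 for Rrm1. Of 32 other tested S phase genes, 0 passed in knockout (edgeR) and 1, the dUTPase gene Dut, fell in wild type (−0.49 ± 0.14, adjusted p = 0.0309). Among all genes 6.73% rose and 6.26% fell in knockout, and 6.91% rose and 5.3% fell in wild type. The list medians were 0.05 in knockout and −0.04 in wild type, or −0.09 in wild type without TAC 1. Dut did not pass without TAC 1 (−0.50, edgeR adjusted p = 0.174).

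The mitotic genes encode the kinases, motors, kinetochore and contractile ring that part the chromosomes and the cell, and most of their changes after TAC were positive. In knockout 1 of 28 rose (Aurka), 1 fell (Cenpf) and 26 did not pass, with 25 changes above 0 and a median of 0.44. In wild type 7 of 28 rose, 1 fell (Cenpf) and 20 did not pass, with 27 changes above 0 and a median of 0.82. The shares of all genes were 6.73% risen and 6.26% fallen in knockout, and 6.91% risen and 5.3% fallen in wild type. Every TAC library lay above every sham library for 2 of 28 genes in knockout, where this held for 10.6% of all genes tested. In wild type it held for 22 of 28 genes, where it held for 16.4% of all genes with 2 libraries against 4. With wild-type TAC 2 alone it held for 23 of 28 genes, against 26.4% of all genes, with 26 changes above 0 and a median of 0.60, although 0 of the 28 passed the edgeR test. The difference between the genotypes in the size of the TAC effect did not pass for any gene, as given further on.

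Leaving out Cenpf and Cenpa, the mitotic genes of highest CPM, the summed level of the other 26 mitotic genes was 73.3, 72.9, 50.4 and 111 CPM in knockout TAC, against 48.2, 53.9, 64.1 and 68.2 CPM in knockout sham. It was 142 and 108 CPM in wild-type TAC, against 56.5, 76.4, 74.7 and 67.9 CPM in wild-type sham. Both wild-type TAC libraries lay above all 4 sham libraries, while the knockout TAC libraries spread across and beyond the sham range. With Cenpf and Cenpa included the wild-type groups overlapped, at 232 and 195 CPM in TAC and 171 to 267 CPM in sham. Within knockout TAC, library 4 was the highest of the 4 for 24 of the 28 mitotic genes and library 3 the lowest for 20 of them. The spread was therefore shared by most of the list. Without knockout TAC 3, 10 of the 45 genes passed in knockout in place of 4, the mitotic genes Bub1b, Kif20a, Plk1, Prc1 and Tpx2 and the G1 gene Ccnd1 in addition. Without knockout TAC 4, 3 passed. The remaining knockout TAC libraries lay above every knockout sham library for 10 of 28 mitotic genes without TAC 3, against 15.5% of all genes tested. Without TAC 4 this held for 2 of 28, against 12.8% of all genes. Wild-type TAC 1 exceeded wild-type TAC 2 for 22 of the 28.

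**Figure D3:**
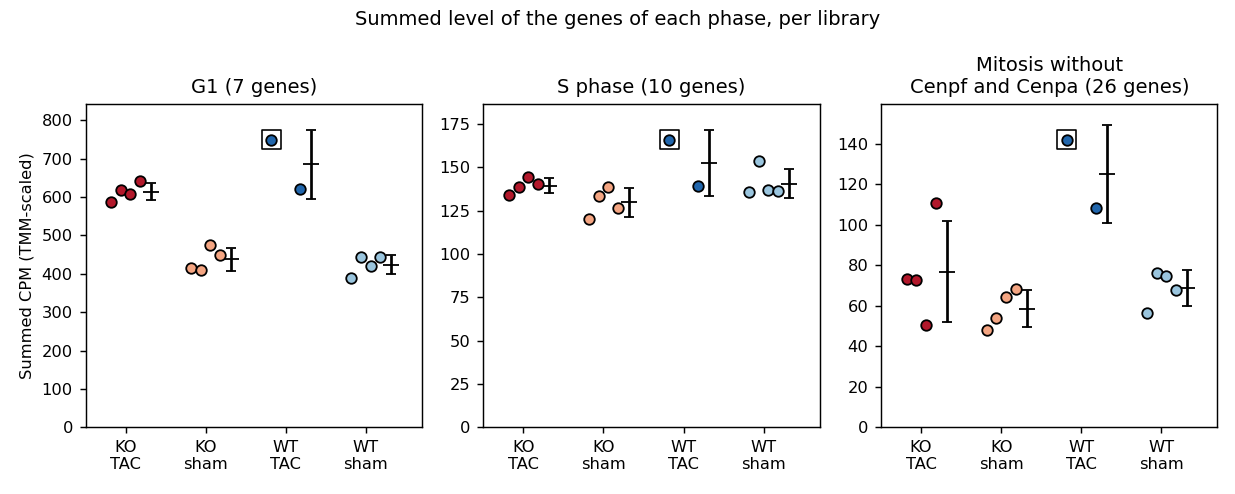
Summed level of the genes of each phase in each library, in TMM-scaled CPM, for knockout TAC, knockout sham, wild-type TAC and wild-type sham; points are libraries, bars are mean and SD, and a square marks the library labelled wild-type TAC 1. The G1 sum is higher in every TAC library than in every sham library, the S phase sums overlap, and the mitotic sum of 26 genes separates TAC from sham in wild type but spreads from 50.4 to 111 CPM in knockout TAC. Ccnd2 alone averages 362 of the 614 CPM of the G1 sum in knockout TAC and 255 of 437 in knockout sham. In wild type it averages 412 of 686 CPM in TAC and 222 of 424 in sham. With Cenpf and Cenpa included, the mitotic sums of TAC and sham overlap in wild type.

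Among the markers of cycling cells, Mki67 (ENSMUSG00000031004.8, chromosome 7, 135689784 to 135716361) encodes the Ki-67 protein that coats mitotic chromosomes. It had 130, 169, 124 and 258 counts in knockout TAC (12.0, 11.4, 6.74 and 17.0 CPM), against 115, 120, 174 and 142 in knockout sham (7.91, 9.19, 12.3 and 10.4 CPM). It had 309 and 255 counts in wild-type TAC (23.7 and 18.9 CPM), against 101, 291, 219 and 215 in wild-type sham (7.88, 13.6, 12.0 and 11.6 CPM). Both wild-type TAC libraries lay above every other library of the series. The rise in wild type was 0.91 ± 0.26 or 1.87-fold (edgeR adjusted p = 0.0343), or 0.73 without TAC 1 (adjusted p = 0.296). In knockout the groups overlapped, the change was 0.24 (edgeR adjusted p = 0.519), and it was −0.001 without knockout TAC 4. Top2a (ENSMUSG00000020914.17, chromosome 11, 98992943 to 99024189), the topoisomerase that untangles chromosomes before they part, had 72, 128, 85 and 205 counts in knockout TAC (6.65, 8.65, 4.62 and 13.5 CPM), against 76, 77, 105 and 106 in knockout sham (5.23, 5.90, 7.40 and 7.75 CPM). It had 238 and 163 counts in wild-type TAC (18.3 and 12.1 CPM), against 65, 246, 182 and 144 in wild-type sham (5.08, 11.5, 9.96 and 7.76 CPM). Its changes of 0.35 in knockout (edgeR adjusted p = 0.464) and 0.80 in wild type (adjusted p = 0.135) did not pass, although the wild-type groups did not overlap. Without TAC 1 the wild-type change was 0.48.

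Of the kinases and cyclins that start mitosis, Cdk1 (ENSMUSG00000019942.13, chromosome 10, 69335146 to 69352938), the master kinase of mitotic entry, had 17, 29, 36 and 51 counts in knockout TAC (1.57, 1.96, 1.96 and 3.37 CPM), against 17, 12, 21 and 28 in knockout sham (1.17, 0.919, 1.48 and 2.05 CPM). It had 61 and 45 counts in wild-type TAC (4.68 and 3.33 CPM), against 11, 32, 28 and 33 in wild-type sham (0.859, 1.50, 1.53 and 1.78 CPM). The wild-type groups were well apart, while in knockout only TAC 4 lay above all sham libraries. The rise in wild type was 1.47 ± 0.33 or 2.77-fold (edgeR adjusted p = 0.0081) and passed in 13 of the 14 fits that left out 1 library. Without TAC 1 it was 1.20 (adjusted p = 0.15). The knockout change was 0.66 (edgeR adjusted p = 0.153). Aurka (ENSMUSG00000027496.15, chromosome 2, 172356190 to 172370535), the kinase of the spindle poles, had 17, 21, 26 and 30 counts in knockout TAC (1.57, 1.42, 1.41 and 1.98 CPM), against 13, 11, 10 and 12 in knockout sham (0.895, 0.842, 0.705 and 0.877 CPM). It had 25 and 26 counts in wild-type TAC (1.92 and 1.93 CPM), against 13, 25, 17 and 28 in wild-type sham (1.01, 1.17, 0.930 and 1.51 CPM). All TAC libraries lay above the sham libraries of their genotype. The change passed in knockout, at 0.94 ± 0.23 or 1.91-fold (edgeR adjusted p = 0.0165, or 0.0571 without TAC 4), and not in wild type, at 0.72 with both TAC libraries (adjusted p = 0.075) and without TAC 1.

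The cyclins that partner Cdk1 were lower still. Ccnb1 had 7, 7, 8 and 31 counts in knockout TAC, against 7, 10, 13 and 7 in knockout sham, and 27 and 12 in wild-type TAC, against 5, 15, 21 and 19 in wild-type sham. One library in each TAC group stood above the rest. Ccnb1, Ccnb2 and Ccna2 changed by 0.43, 0.53 and 0.49 in knockout and by 0.82, 1.02 and 0.84 in wild type, and none passed (smallest edgeR adjusted p = 0.058, for Ccnb2 in wild type). The changes in wild type without TAC 1 were 0.09 for Ccnb1, 1.08 for Ccnb2 and 0.32 for Ccna2. Aurkb, the kinase that corrects faulty chromosome attachment, changed by 0.81 in knockout and 1.15 in wild type (edgeR adjusted p = 0.238 and 0.114). Its 2 counts in knockout sham 2 were the lowest of any gene of the list. Plk1, which acts with Cdk1 at mitotic entry, changed by 0.79 in knockout and 0.92 in wild type (edgeR adjusted p = 0.0943 and 0.0611). In wild type without TAC 1, Aurkb changed by 1.19 and Plk1 by 0.90.

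The spindle and cytokinesis genes that rose in wild type were Tpx2, Prc1, Birc5, Ect2 and Anln. Tpx2 (ENSMUSG00000027469.16, chromosome 2, 152847964 to 152895321), which activates Aurora A on the spindle, had 31, 52, 33 and 73 counts in knockout TAC (2.86, 3.52, 1.79 and 4.82 CPM), against 21, 19, 37 and 34 in knockout sham (1.45, 1.46, 2.61 and 2.48 CPM). In wild-type TAC it had 91 and 53 counts (6.98 and 3.93 CPM), against 27, 69, 41 and 49 in wild-type sham (2.11, 3.23, 2.24 and 2.64 CPM). The wild-type groups did not overlap and the knockout groups did. Prc1 (ENSMUSG00000038943.16, chromosome 7, 80294450 to 80316259), which bundles the microtubules of the central spindle, had 46, 60, 32 and 84 counts in knockout TAC (4.25, 4.06, 1.74 and 5.55 CPM), against 27, 28, 35 and 42 in knockout sham (1.86, 2.14, 2.47 and 3.07 CPM). It had 81 and 83 counts in wild-type TAC (6.22 and 6.15 CPM), against 30, 81, 58 and 49 in wild-type sham (2.34, 3.79, 3.17 and 2.64 CPM). Both wild-type TAC libraries lay above every sham library, while knockout TAC 3 lay below all knockout sham libraries. Prc1 overlaps Rccd1 on the opposite strand, and with coding parts alone it did not pass.

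Birc5 (ENSMUSG00000017716.15, chromosome 11, 117849251 to 117855743) encodes survivin, a partner of Aurora B. It had 14, 15, 21 and 22 counts in knockout TAC (1.29, 1.01, 1.14 and 1.45 CPM), against 11, 6, 19 and 16 in knockout sham (0.757, 0.460, 1.34 and 1.17 CPM). In wild-type TAC it had 30 and 37 counts (2.30 and 2.74 CPM), against 13, 31, 26 and 20 in wild-type sham (1.01, 1.45, 1.42 and 1.08 CPM). The wild-type groups were apart and the knockout groups overlapped. Ect2 (ENSMUSG00000027699.19, chromosome 3, 27097222 to 27153878), the exchange factor that switches on RhoA at the cleavage furrow, had 16, 23, 19 and 36 counts in knockout TAC (1.48, 1.55, 1.03 and 2.38 CPM), against 15, 16, 14 and 15 in knockout sham (1.03, 1.23, 0.986 and 1.10 CPM). It had 43 and 26 counts in wild-type TAC (3.30 and 1.93 CPM), against 14, 22, 22 and 16 in wild-type sham (1.09, 1.03, 1.20 and 0.863 CPM). The 2 wild-type TAC libraries differed from each other more than the sham libraries did among themselves, and both lay above them. Anln (ENSMUSG00000036777.8, chromosome 9, 22332012 to 22389188) encodes anillin, a scaffold of the contractile ring. It had 45, 41, 57 and 62 counts in knockout TAC (4.16, 2.77, 3.10 and 4.09 CPM), against 41, 25, 45 and 53 in knockout sham (2.82, 1.91, 3.17 and 3.87 CPM). In wild-type TAC it had 79 and 77 counts (6.06 and 5.71 CPM), against 37, 78, 56 and 50 in wild-type sham (2.89, 3.65, 3.06 and 2.70 CPM). The wild-type groups did not overlap and the knockout groups did.

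In wild type Ect2 rose by 1.31 ± 0.31 (log2, SE, edgeR adjusted p = 0.0103) and Anln by 0.93 ± 0.23 (adjusted p = 0.0157), each in 13 of the 14 fits that left out 1 library. Tpx2 rose by 1.08 ± 0.34 (edgeR adjusted p = 0.0489), Prc1 by 1.03 ± 0.32 (adjusted p = 0.0434) and Birc5 by 1.00 ± 0.30 (adjusted p = 0.0399), close to the threshold, and these passed in 4, 4 and 6 of the 14 fits. Without TAC 1 none of the 5 passed, with changes of 0.88 for Ect2, 0.88 for Anln, 0.61 for Tpx2, 1.02 for Prc1 and 1.12 for Birc5. With coding-part counts Tpx2 passed and the other 4 did not. In knockout the changes of the same genes were 0.56, 0.25, 0.69, 0.69 and 0.38 (smallest edgeR adjusted p = 0.122). The remaining motors and kinetochore genes, among them Kif11, Kif20a, Kif23, Kif4, Cenpe, Nusap1, Racgap1, Cdc20 and Cdca8, did not pass in either genotype, with changes of 0.09 to 0.66 in knockout and 0.52 to 0.93 in wild type. Without TAC 1 the wild-type range was −0.02, for Kif4, to 0.77, for Cdca8, with Cenpe at 0.44 and Cdc20 at 0.48. Of the checkpoint kinase genes, Bub1 changed by −0.30 in knockout and 0.57 in wild type and Bub1b by 0.45 in knockout and 0.39 in wild type. The condensin gene Ncapg changed by 0.15 in knockout and 0.26 in wild type, or 0.12 without TAC 1. Cenpa, the centromeric histone, stayed at 51.2 to 72.3 CPM in all libraries.

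**Figure D4:**
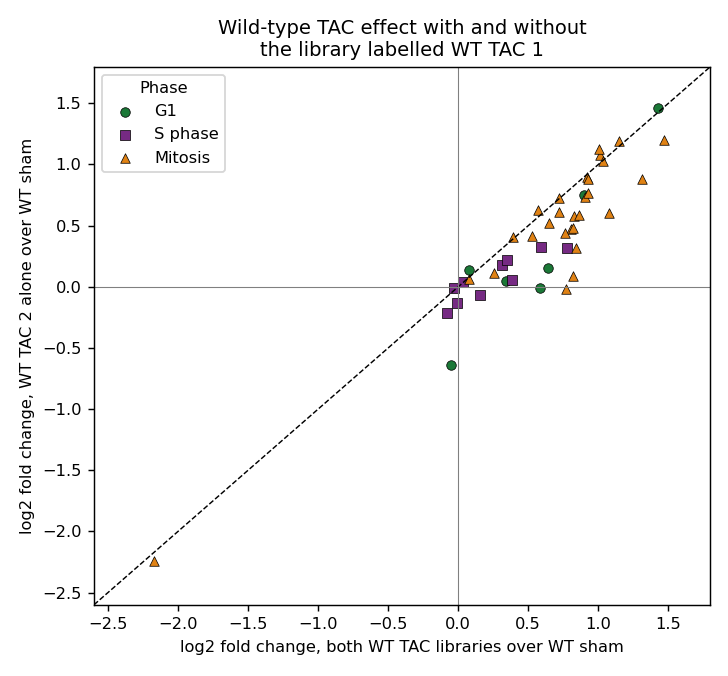
Wild-type TAC effect on the 45 genes as log2 fold change over sham, with both TAC libraries (horizontal axis) and with wild-type TAC 2 alone (vertical axis), by phase, and the dashed line marks equal values. The mitotic median falls to 0.60 with TAC 2 alone, against 0.82 with both, and 26 of 28 mitotic changes stay above 0.

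A further list of 50 mitotic genes, of which 48 were tested, holds none of the 45. It was chosen with earlier results of these data known and measured in the same libraries, so it is not an independent check. In knockout 0 of the 48 passed after TAC (edgeR), against 6.73% of all genes tested that rose and 6.26% that fell, with a median of 0.27. In wild type 13 rose and 1, the kinetochore gene Spc24, fell (−0.65 ± 0.17, edgeR adjusted p = 0.0207), against 6.91% and 5.3% of all genes, with a median of 0.71. The cohesin acetyltransferase gene Esco2, the gene of smallest p among them, averaged 1.78 ± 0.52 CPM in wild-type TAC and 0.60 ± 0.07 CPM in wild-type sham (SD, n = 2 and 4), a log2 change of 1.54 ± 0.33 (edgeR adjusted p = 0.00628). Ckap2l, a spindle gene, averaged 3.33 ± 0.72 CPM in wild-type TAC and 1.41 ± 0.27 CPM in wild-type sham (1.21 ± 0.31, edgeR adjusted p = 0.018), and the condensin gene Smc4 averaged 68.4 ± 5.98 CPM in wild-type TAC and 51.1 ± 5.14 CPM in wild-type sham (0.42 ± 0.11, adjusted p = 0.0244). Without wild-type TAC 1, 0 of 49 tested passed, with a median of 0.45 and changes of 1.21 for Esco2, 0.97 for Ckap2l, 0.51 for Smc4 and −0.56 for Spc24.

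Cenpf (ENSMUSG00000026605.14, chromosome 1, 189640606 to 189688086, minus strand) encodes a large kinetochore and nuclear matrix protein that accumulates late in the cycle, and it fell after TAC in both genotypes. It had 344, 569, 687 and 492 counts in knockout TAC (31.8, 38.5, 37.3 and 32.5 CPM), against 2537, 2017, 1105 and 1741 in knockout sham (175, 154, 77.8 and 127 CPM). It had 250 and 234 counts in wild-type TAC (19.2 and 17.3 CPM), against 1774, 1420, 1738 and 577 in wild-type sham (138, 66.4, 95.1 and 31.1 CPM). The groups did not overlap in either genotype, and the sham libraries spread far more than the TAC libraries. The fall was −1.93 ± 0.33 (log2, SE, edgeR adjusted p = 0.00281) in knockout, in all 14 fits that left out 1 library. It was −2.17 ± 0.45 (adjusted p = 0.00528) in wild type, or −2.25 (adjusted p = 0.0698) without TAC 1. The coding part held 92.3% of its counts in knockout TAC and 92.0% in knockout sham, and 90.1% in wild-type TAC and 90.8% in wild-type sham. With the 10-week libraries alone it was −1.55 in knockout (edgeR adjusted p = 0.0742) and −1.79 in wild type (adjusted p = 0.0257). With Cenpf and Cenpa included, the mitotic sum was 166 ± 22.8 CPM in knockout TAC and 255 ± 32.9 CPM in knockout sham, whereas without them it was 76.9 CPM in knockout TAC and 58.6 CPM in knockout sham.

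Between the genotypes no gene of the list passed in either surgery. In sham hearts 0 of 45 passed (edgeR, smallest adjusted p = 0.189, with 6 at an unadjusted p under 0.05 and 0 with DESeq2), against 0.575% of all genes higher and 0.313% lower in knockout. The knockout changes lay below 0 for 39 of the 45 genes, with a median of −0.16 over the 45 and −0.26 over the mitotic genes. After TAC 0 of 45 passed (edgeR, smallest adjusted p = 0.105, with 21 at an unadjusted p under 0.05 and 1, Cenpa, with DESeq2), against 0.377% of all genes higher and 1.11% lower in knockout. Of the 28 mitotic genes 27 were lower in the point estimate, with a median of −0.70 and Cenpf at 0.94 the exception. Every knockout TAC library lay below both wild-type TAC libraries for 13 of the 28, where this held for 10.8% of all genes tested. Against wild-type TAC 2 alone it held for 14 of 28, where it held for 27.2% of all genes, with a median of −0.43. Without knockout TAC 4 it held for 24 of 28, where it held for 15.4% of all genes, and Mki67 and Cdca8 passed. Birc5 had the most negative change, with 1.23 ± 0.19 CPM in knockout TAC and 2.52 ± 0.31 CPM in wild-type TAC (−1.04, edgeR adjusted p = 0.112, or −1.16 without wild-type TAC 1). Mki67 averaged 11.8 ± 4.21 CPM in knockout TAC and 21.3 ± 3.41 CPM in wild-type TAC (SD, n = 4 and 2, −0.86, edgeR adjusted p = 0.133, or −0.69 without wild-type TAC 1).

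The difference between the TAC effects of the genotypes passed for 0 of the 45 genes (edgeR, smallest adjusted p = 0.666, with 2 at an unadjusted p under 0.05 and 0 with DESeq2), against 0% of all genes higher and 0.0192% lower in knockout. The mitotic median of that difference was −0.39, and −0.29 without wild-type TAC 1. For Cdk1 the difference was −0.81 and for Mki67 −0.67 (edgeR adjusted p = 0.814 and 0.8), or −0.54 for Cdk1 and −0.49 for Mki67 without wild-type TAC 1. The 4 and 11 genes called within the genotypes therefore do not show that the TAC effects differ. Of the other mitotic genes, Tacc3, which organises spindle microtubules, was lower in knockout after TAC, at 3.81 ± 0.91 CPM in knockout TAC and 6.95 ± 1.13 CPM in wild-type TAC (−0.85 ± 0.20, edgeR adjusted p = 0.0469). Without wild-type TAC 1 this call was lost (−0.68, adjusted p = 0.298), and 0 of 49 passed.

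Of the summed markers of cells that can divide, those of macrophages, fibroblasts and, at low counts, lymphocytes were higher after TAC in both genotypes. Endothelial sums overlapped. The 8 macrophage markers summed to 207 to 258 CPM in knockout TAC and 130 to 175 CPM in knockout sham. They summed to 249 and 311 CPM in wild-type TAC, with TAC 2 the lower, and 181 to 209 CPM in wild-type sham. Of these markers 6 of 8 rose in knockout and 5 of 8 in wild type (edgeR), against 6.73% and 6.91% of all genes tested. The 8 fibroblast markers summed to 1777 to 2337 CPM in knockout TAC and 1272 to 1419 CPM in knockout sham. They summed to 3260 and 4249 CPM in wild-type TAC, with TAC 2 the lower, and 1348 to 1677 CPM in wild-type sham. Of these markers 4 of 8 rose in knockout and 5 of 8 in wild type, against the same shares of all genes. They were Postn, Col1a1, Col1a2 and Col3a1 in both genotypes, with Lum in addition in wild type. The fibroblast markers Pdgfra, Tcf21 and Dcn did not pass in either genotype, and 1 of the 8 changes lay below 0 in wild type. Within knockout TAC, library 4 had the highest fibroblast sum (2337 against 1777 to 1889 CPM) and the highest macrophage sum (258 CPM). Its endothelial sum of 1787 CPM lay below those of libraries 1 and 2 (1825 and 1816 CPM). Library 3 had the lowest endothelial sum (1411 against 1787 to 1825 CPM). Its fibroblast sum (1874 CPM) and macrophage sum (228 CPM) lay within the range of the other knockout TAC libraries. Endothelial sums were at 1411 to 1825 CPM in knockout TAC and 1242 to 1610 CPM in knockout sham. They were at 1679 and 1761 CPM in wild-type TAC and 1384 to 1932 CPM in wild-type sham. In knockout 8 of 8 endothelial changes lay above 0 and 1, Pecam1, rose (edgeR), against 6.73% of all genes. In wild type 4 of 8 lay above 0 and 0 passed. Lymphocyte markers were low, with summed counts of 35 to 97 per library. Their sums were 4.43 to 6.22 CPM in knockout TAC, 2.41 to 4.14 CPM in knockout sham, 4.84 and 5.19 CPM in wild-type TAC and 3.07 to 4.53 CPM in wild-type sham. The TAC and sham sums lay narrowly apart in both genotypes. Only 4 of the 8 lymphocyte markers were tested, and 0 passed in either genotype (edgeR). No marker of the macrophage, fibroblast or endothelial lists was at 0 in a group. The part of these markers in the changes of the cycle genes was not tested.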

How the data were processed

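Poly(A) RNA of 14 mouse heart libraries was sequenced from strand-specific preparations, per the labels' protocols. STAR 2.4.2a, Picard 2.10.3, bcl2fastq 2.17.1.14 and the builds GRCm38 and mm10 are named, without roles, per the submitters' processing notes. The files the authors deposited hold raw gene-level read counts, with coding parts in a separate column per the file headers. Which annotation and strand setting the counting used is not given in the sources used here, and genes that overlap others are uncertain. Of 51912 identifiers, 51633 were given a symbol by GENCODE M21 (GRCm38), 47648 of them at the same version. Reads in no gene were left out of library sizes (10.7% to 19.0% of counted reads per library).

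Counts were filtered with filterByExpr (minimum count 10), which left 15651 genes tested and 36261 untested, scaled by TMM and fitted by quasi-likelihood in edgeR 4.0.16 (R 4.3.3), with 1 coefficient per group over all 14 libraries (biological coefficient of variation 11.8%). P-values were adjusted over all genes tested by Benjamini-Hochberg, with a threshold of 0.05. CPM values are computed on TMM-scaled libraries, and a standard error is the log2 change divided by the square root of its F statistic. The edgeR code was tested on simulated data. All pairs of libraries within a group differed by more than sampling noise (lowest chi-square per degree of freedom 3.43). Alternatives were DESeq2 1.42.0, RLE scaling, no low-count filter, coding-part counts, 10-week libraries alone, only the groups compared, and each library left out in turn. The members, the gene lists and the motifs were chosen with earlier results of these data known. Raw counts and CPM of every library are given for the genes that passed in any comparison and for Mki67, Top2a, Cdk1, Ccnd1, Ccnd2, Ccnd3, Cdkn1a, Pcna and Mcm2, and for 1 more by counts, Ccnb1, chosen after its values were seen. From the other lists at most 4 genes per comparison are named, by smallest p.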

Additional observations from a re-analysis of the deposited data

Results flagged for a closer look

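In 60 sets of 4 libraries, formed by group from the genes given library by library and from the sums, the highest or lowest library was set against the gap to its nearest neighbour, and 3 gaps exceeded Dixon's critical value for 4 samples. Chance flags about 1 in 20 such sets. Knockout sham 4 had 56.1 CPM of Cdkn1a, against 15.6 to 18.3 CPM in the other 3 knockout sham libraries. Wild-type sham 2 had 9.91 CPM of Mcm2, against 8.59 to 8.70 CPM in the other 3. The same library had a summed S phase level of 153.5 CPM, against 135.5 to 137.1 CPM in the other 3.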

How the results depend on the processing

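Genes of the list past the threshold numbered 4 after TAC in knockout, 11 after TAC in wild type, and 0 between genotypes in sham, between genotypes after TAC and in the difference of the TAC effects. With the 10-week libraries alone they were 0 in knockout and 3 in wild type, and with coding-part counts 7 in wild type. With knockout sham 4 and knockout TAC 3 left out together, a choice made after seeing the data, they were 9 in knockout. Without the low-count filter they were 1 between genotypes in sham and 3 after TAC, and after TAC they were 1 with DESeq2 and 1 with only the groups compared. Leaving out 1 library at a time gave 3 to 10 in knockout (10 without TAC 3), 1 to 15 in wild type (1 without TAC 1, 6 without sham 1 and 6 without sham 3), 0 to 0 between genotypes in sham, 0 to 2 after TAC (2 without knockout TAC 4) and 0 to 0 in the difference. The change of Mki67 in knockout, 0.241, ran over these fits from −0.001, a reversal, without knockout TAC 4 to 0.445 without knockout TAC 3. The cause of these shifts was not tested. Over all genes the calls were 2033 in knockout (15 at 10 weeks, 1005 on coding parts) and 1912 in wild type (938, 1169, and 1074 with only the groups compared). No paired analysis was possible because the labels number no replicates within a group, and the numbers used here only name libraries. At 10 to 100 counts per library, small changes of most mitotic genes were not detectable.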

Other observations

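Cdkn1a is 1 of many targets of p53, and 14 other p53 targets were measured beside it. In knockout 5 of the 14 rose after TAC (edgeR), against 6.73% of all genes tested, with a median change of 0.28. In wild type 1 of 14 rose, against 6.91% of all genes, with a median of 0.29, or 0.25 without TAC 1. Phlda3, an inhibitor of AKT, averaged 20.9 ± 2.08 CPM in knockout TAC and 12.3 ± 0.82 CPM in knockout sham (log2 change 0.76 ± 0.12, edgeR adjusted p = 0.00194), and 32.4 ± 7.31 CPM in wild-type TAC and 14.8 ± 1.78 CPM in wild-type sham (1.13 ± 0.14, adjusted p = 8.83e-05). In knockout the antiproliferative gene Btg2 (0.74 ± 0.20, edgeR adjusted p = 0.027), the nuclease gene Aen (0.32 ± 0.09, adjusted p = 0.0271) and the apoptosis gene Bax (0.34 ± 0.10, adjusted p = 0.0367) also rose. Phlda3 was lower in knockout than in wild type after TAC (−0.63 ± 0.14, edgeR adjusted p = 0.0328), but not past the threshold without wild-type TAC 1 (−0.38, adjusted p = 0.33). Its rise after TAC in wild type still passed without that library (0.88, edgeR adjusted p = 0.00529).

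Markers of other cells in the tissue were summed over 8 genes each. Neutrophil markers were low, at 2.68 to 4.78 CPM in knockout TAC, 1.72 to 2.27 CPM in knockout sham, 2.23 and 4.67 CPM in wild-type TAC and 2.50 to 5.07 CPM in wild-type sham, with Ly6g and Camp at 0 in all knockout sham and all wild-type TAC libraries. The sums did not overlap in knockout and overlapped in wild type. In knockout 2 of the 3 tested, S100a8 and S100a9, rose after TAC (edgeR), against 6.73% of all genes, and in wild type 0 of 3 passed. Erythroid markers were at 327 to 434 CPM in knockout TAC, 283 to 376 CPM in knockout sham, 480 and 511 CPM in wild-type TAC and 320 to 488 CPM in wild-type sham. Of 7 tested erythroid markers 1, Hba-a2, rose in knockout (edgeR), against 6.73% of all genes, and 0 passed in wild type. Smooth muscle and pericyte markers were at 1376 to 1929 CPM in knockout TAC, 1504 to 1746 CPM in knockout sham, 1466 and 2000 CPM in wild-type TAC and 1577 to 1746 CPM in wild-type sham.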
